A study of Mus musculus with 24 samples.

Results

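Genes of the fat cell were followed in RNA from whole mouse lung: Adipoq, Cfd, Car3, Fabp4, Retn, Cidec, Cidea, Ucp1 and Lep. They were picked by symbol with the values of these same arrays in view, and they are 9 of the 27401 genes on the array, read by 13 of 40555 probes. Their levels and differences are therefore given as descriptions with the spread between arrays and with no p-value. Of the 9 genes, 7 were well above background on both arrays of at least 1 group, and Ucp1 and Lep were not.

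Shock-frozen lung was sampled 24 days after irradiation (IR) from 12 groups of 2 biological replicates. The irradiated groups are IR+Ly+Imatinib, IR+Ly+Su, IR+Ly, IR+Imatinib, IR+Su and IR, and the unirradiated ones are Ly+Imatinib, Ly+Su, Ly, Imatinib, Su and untreated. The study asked, by its title, about blocking TGF-beta and PDGF signalling together in radiation-induced lung fibrosis; imatinib inhibits the ABL, KIT and PDGF receptor kinases, and Ly and Su are used as the labels write them. Strain, sex, age, radiation dose, drug doses and the way each lung was dissected are not stated in the labels. An arm below means both groups of 1 drug treatment, irradiated and not, so that an arm has 4 arrays.

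White adipocytes hold triglyceride in 1 large droplet, which perilipins and the CIDE proteins coat, and they release hormones such as adiponectin and leptin. Brown adipocytes hold many small droplets and burn fat through the uncoupling protein encoded by Ucp1. Fat cells are not a regular part of the alveolar wall; in the chest they lie mainly in the connective tissue of the mediastinum, around the heart, the thymus and the large airways. In bulk tissue, fewer cells of a type and less RNA per cell cannot be told apart.

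A level here is the log2 intensity of a probe minus the log2 of the 75th percentile of all spots on its array, so that a difference of 1 is a factor of 2. The 10 lung epithelium markers, led by Sftpc and Scgb1a1, had a mean level of 5.90 to 6.47 on the 24 arrays. The arrays lay on 6 slides of 4, each slide with lungs of only 1 irradiation status, so that irradiation cannot be told apart from slide. Within each irradiation status, the Ly+Imatinib and Ly+Su groups shared a slide, as did the Imatinib and Su groups, and the Ly group and the group without drug. Of the drug arms, only Ly therefore lay on the same slides as the no-drug arm. Differences of the other drug arms from the no-drug arm cannot be told apart from slide. Array IR 1 had a 75th percentile of 2518, against 704 to 1768 on the others, and 330 spots of array IR+Ly+Imatinib 1 were outliers, where no other array exceeded 80. The median negative control signal was 2.65 to 2.95 on IR+Ly+Imatinib 2 and both IR+Ly+Su arrays, against 4.38 to 12.4 on the other 21.

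Adipoq, which encodes the hormone adiponectin, was lowest in the Ly+Imatinib arm. It stood at -3.74 and -4.39 in IR+Ly+Imatinib lungs, against -0.94 and -1.93 in IR lungs. Without irradiation it stood at -5.42 and -2.18 in Ly+Imatinib lungs, against -0.48 and -0.70 in untreated lungs. The lowest of these, array Ly+Imatinib 1, was the only one of the 24 on which Adipoq was not well above background. The other irradiated lungs had -1.36 and -1.0 with Ly+Su, -1.38 and -2.02 with Ly, -1.31 and -2.14 with Imatinib, and -1.02 and -1.13 with Su. The other unirradiated lungs had -1.21 and -0.85 with Ly+Su, -0.60 and -1.22 with Ly, -1.06 and 0.09 with Imatinib, and -1.29 and -1.24 with Su. All 4 arrays of the Ly+Imatinib arm therefore lay below the other 20, which ran from -2.14 to 0.09, although the gap between the highest of the 4 and the lowest of the 20 was small. In the order of the 12 group means, from -4.07 ± 0.46 in IR+Ly+Imatinib to -0.49 ± 0.81 in Imatinib lungs (SD, n = 2), the step of 2.07 above the Ly+Imatinib group was the only one of 11 larger than the pooled SD of 0.79.

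Cfd encodes complement factor D, also called adipsin, a serine protease that fat cells secrete. Its level was 0.44 and -0.75 in IR+Ly+Imatinib lungs, against 3.36 and 2.02 in IR lungs. It was -3.11 and 1.10 in Ly+Imatinib lungs, against 3.28 and 2.78 in untreated lungs. The 2 Ly+Imatinib arrays were 4.21 apart, and each of the 4 arrays of the arm again lay below all others. Irradiated lungs of the remaining arms had 2.17 and 2.69 with Ly+Su, 2.51 and 1.5 with Ly, 2.23 and 1.77 with Imatinib, and 2.61 and 2.53 with Su. Unirradiated lungs of those arms had 2.40 and 2.79 with Ly+Su, 2.96 and 2.58 with Ly, 2.75 and 3.44 with Imatinib, and 2.31 and 2.35 with Su. From the lowest group mean, -1.01 ± 2.98 in Ly+Imatinib, to the highest, 3.1 ± 0.49 in Imatinib lungs, only the step of 2.16 above IR+Ly+Imatinib exceeded the pooled SD of 0.99.

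**Figure D1:**
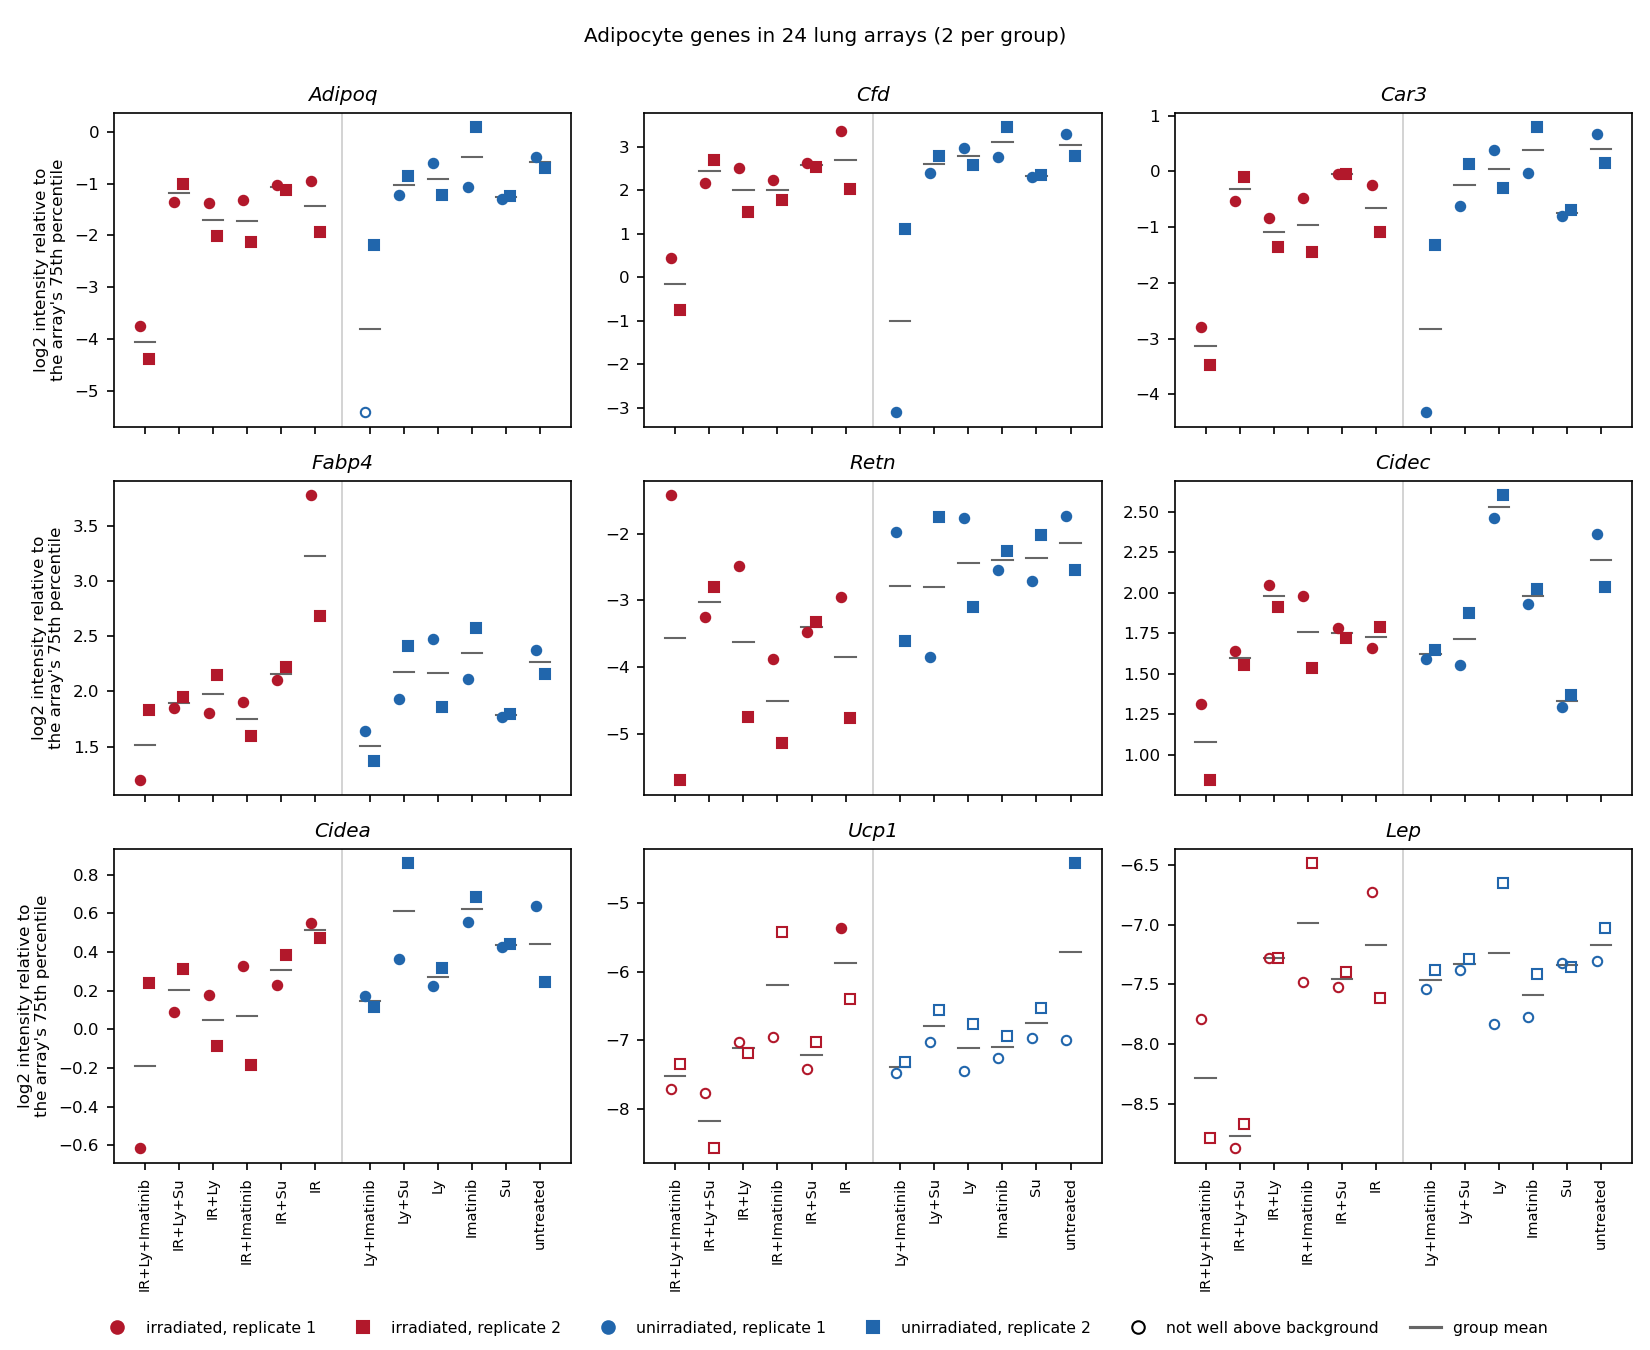
Level of the 9 adipocyte genes on each of 24 arrays, as log2 intensity relative to the array's 75th percentile; irradiated groups (red) are left of unirradiated ones (blue), circles and squares are the 2 replicates, open marks are not well above background and bars are group means. The Ly+Imatinib arm is low for Adipoq, Cfd and Car3, and Lep is open on every array.

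Lep, the gene of leptin, was not well above background on any of the 24 arrays, with levels between -8.88 and -6.48. No fold can be given for it. Retn encodes resistin, a hormone of mouse fat cells, and 2 probes read it. Its probe of higher mean stood at -1.43 and -5.70 in IR+Ly+Imatinib lungs, against -2.94 and -4.76 in IR lungs. In Ly+Imatinib lungs it stood at -1.97 and -3.60, against -1.73 and -2.54 in untreated lungs. The 4 arrays of the arm thus spanned the whole range of this probe. The other probe gave -6.91 on IR+Ly+Imatinib 1 and -6.17 on Ly+Imatinib 1, neither well above background, where the first probe was among its highest. On the second arrays of those groups it gave -5.82 and -4.56. Retn in this arm is therefore uncertain: the difference from the no-drug arm was -0.18 ± 0.83 by the first probe and -2.23 by the second. By the first probe it was -1.25 without array IR+Ly+Imatinib 1 and 0.89 without IR+Ly+Imatinib 2.

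Car3, the carbonic anhydrase that is abundant in the cytosol of fat and slow muscle cells, had -2.78 and -3.48 in IR+Ly+Imatinib lungs, against -0.24 and -1.09 in IR lungs. It had -4.33 and -1.32 in Ly+Imatinib lungs, against 0.68 and 0.15 in untreated lungs. On 3 of the 4 arrays of the arm it was below all 20 others, which ran from -1.45 to 0.79, and 2 of the 20 were below the fourth. Its second probe was well above background on 19 of the 24 arrays and on none of these 4. With its lowest group mean, -3.13 ± 0.49, in IR+Ly+Imatinib and its highest, 0.41 ± 0.38, in untreated lungs, Car3 had 1 step between neighbours larger than its pooled SD of 0.75, again directly above the Ly+Imatinib arm.

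**Figure D2:**
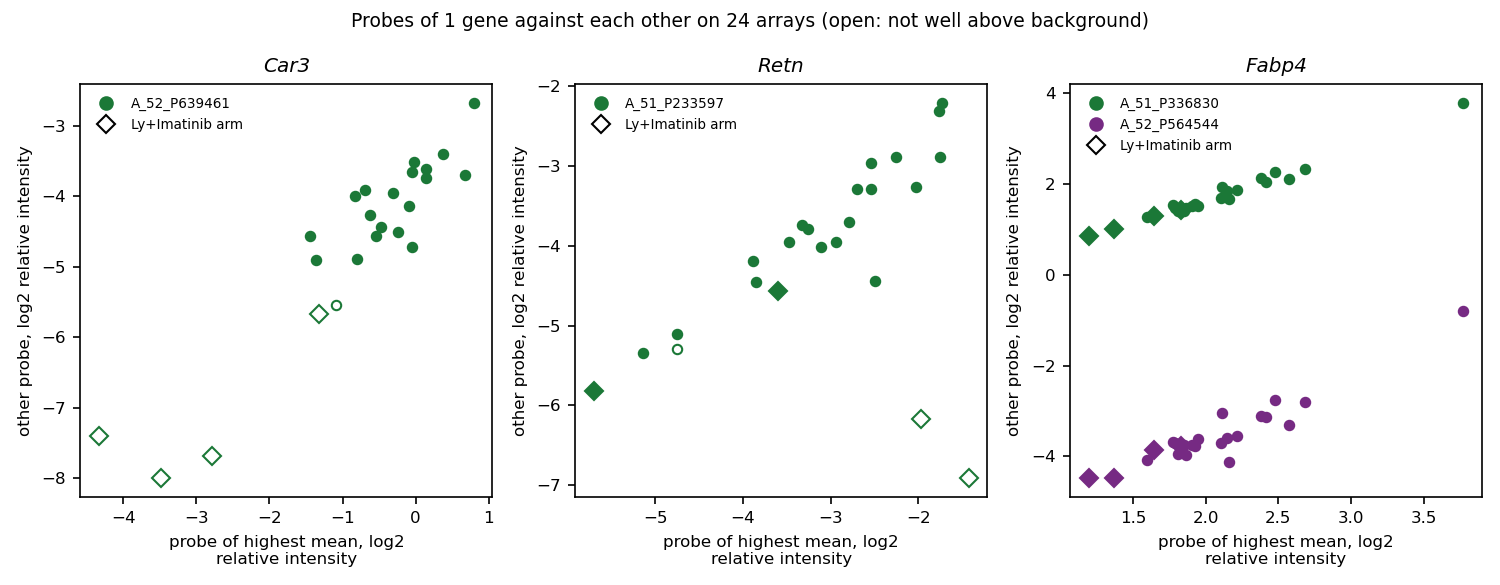
Further probes of Car3, Retn and Fabp4 (y axis) against the probe of highest mean (x axis), log2 relative intensity on 24 arrays; diamonds are the Ly+Imatinib arm and open marks are not well above background. The Retn probes part on 2 arrays of that arm, and IR 1 is the highest array by each of the 3 Fabp4 probes.

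Fabp4 encodes a fatty acid binding protein of adipocytes that macrophages and capillary endothelium also make. It stood at 3.77 and 2.68 in IR lungs, against 2.38 and 2.16 in untreated lungs, and IR 1 was the highest of all arrays by each of its 3 probes. IR+Ly+Imatinib lungs had 1.19 and 1.83 and Ly+Imatinib lungs 1.64 and 1.37, within or just below the 1.60 to 3.77 of the other 20 arrays. In the order of its 12 group means, only IR, at 3.23 ± 0.77, stood above its neighbour by more than the pooled SD of 0.34. The mean capillary endothelium marker level was 3.74 on IR 1, the lowest of 24 arrays, and the mean alveolar macrophage level was 2.99; their part in the Fabp4 value was not tested.

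Cidec and Cidea encode proteins that join and enlarge lipid droplets. Cidec was at 1.32 and 0.84 in IR+Ly+Imatinib lungs, against 1.66 and 1.79 in IR lungs, and at 1.59 and 1.65 in Ly+Imatinib lungs, against 2.36 and 2.04 in untreated lungs. Over all arrays it stayed between 0.84 and 2.60, with the highest group mean, 2.53 ± 0.10, in Ly lungs. Cidec was the member whose groups parted most often: 5 of 11 steps between neighbouring group means exceeded its small pooled SD of 0.17. Cidea stayed between -0.62 and 0.86, with no step larger than its pooled SD of 0.26; its lowest array was IR+Ly+Imatinib 1. Both genes were well above background on all 24 arrays. Ucp1 was well above background on 2 arrays, at -5.36 on IR 1 and -4.42 on untreated 2, and on no others.

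The Ly+Imatinib arm was set against the no-drug arm, 4 arrays on each side and on different slides. It differed by -3.44 ± 0.65 for Cfd, -2.92 ± 0.52 for Adipoq and -2.85 ± 0.50 for Car3 (log2 difference ± SE of the fit). These are 10.8-fold, 7.56-fold and 7.23-fold lower levels. Fabp4 differed by -1.24 ± 0.23, Cidec by -0.61 ± 0.12 and Cidea by -0.50 ± 0.17. Array Ly+Imatinib 1 carried part of the first 3: without it the differences were -2.39 for Cfd, -2.11 for Adipoq and -2.10 for Car3. For 6 of the 7 genes tested, Retn being the exception, the 4 arrays of the arm all lay below the 4 arrays without drug; 5.4% of all 20409 genes tested did so, and 8.92% lay wholly higher. Without IR 1 the Fabp4 difference was -0.97, and IR 1 enters every comparison with the no-drug arm.

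The Ly+Imatinib and Ly+Su arms shared their slides, so this contrast lies within slides. It gave -3.09 ± 0.65 for Cfd, -2.82 ± 0.52 for Adipoq and -2.70 ± 0.50 for Car3, against smaller values for Fabp4 (-0.53 ± 0.23), Cidea (-0.43 ± 0.17) and Cidec (-0.31 ± 0.12). The SE, here and above, pools the spread of all 12 groups. The SD of the Ly+Imatinib group was 2.98 for Cfd, 2.29 for Adipoq and 2.13 for Car3, against pooled SDs of 0.99, 0.79 and 0.75. The SE thus understates the spread of that group. The arrays of Adipoq, Cfd, Car3 and Fabp4 did not overlap between these arms; 1.9% of genes tested were lower in this way and 1.2% higher. Against its single agents, which lay on other slides, the combination differed for Adipoq by -2.63 ± 0.52 from the Ly arm and by -2.83 ± 0.52 from the Imatinib arm, and for Cfd by -2.97 ± 0.65 and -3.13 ± 0.65 in the same order. Each drug arm was compared with the same 4 arrays without drug, so these comparisons are not independent of each other. In the Ly, Imatinib, Su and Ly+Su arms, Adipoq differed from the no-drug arm by -0.29, -0.09, -0.16 and -0.09 (SE 0.52), Car3 by -0.40, -0.16, -0.27 and -0.16 (SE 0.50), and Cfd by -0.47, -0.31, -0.41 and -0.35 (SE 0.65). None of the 7 genes had arrays apart from the no-drug arrays in any of these 4 arms, lower or higher. Of all genes, 2.13% were wholly lower and 1.61% wholly higher in the Ly arm, 3.37% and 3.86% in the Imatinib arm, 5.87% and 4.84% in the Su arm, and 3.78% and 7.57% in the Ly+Su arm. Cidec differed there by 0.29, -0.10, -0.42 and -0.31 (SE 0.12), in the same order of arms. Fabp4 differed by -0.68, -0.70, -0.78 and -0.71 (SE 0.23), and by -0.40, -0.43, -0.51 and -0.44 without array IR 1.

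The replicates of a group differed together in 3 of the genes. In 12 of 12 groups the array with more Adipoq also had more Cfd, in 11 of 12 it had more Car3 and in 10 of 12 more Retn, against 9 for Cidec and 8 each for Fabp4 and Cidea. Over the 20 arrays outside the Ly+Imatinib arm, Adipoq followed Car3 with Pearson r = 0.96 and Spearman rho = 0.94, and Cfd with r = 0.92 and rho = 0.95. It followed Retn with r = 0.80 and rho = 0.70, Cidea with r = 0.64 and rho = 0.52, and Cidec with r and rho both 0.37. For Fabp4 r was 0.35 and rho 0.60, so that the order of Fabp4 and Cidea differs between the measures. Without the arrays Imatinib 2 and IR+Imatinib 2, the farthest from the median of Adipoq, r was 0.94 with Car3, 0.89 with Cfd, 0.81 with Retn, 0.44 with Cidea, 0.31 with Cidec and 0.19 with Fabp4. All points share the scaling to the array's own 75th percentile, and the genes were chosen with these values known, so no p is given. The label of fat cell genes thus covers a set of Adipoq, Cfd and Car3 that varied in step from array to array, and Fabp4, Cidec and Cidea, which did so less closely. Retn stood between them over these 20 arrays, with r = 0.80, and is uncertain in the Ly+Imatinib arm.

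**Figure D3:**
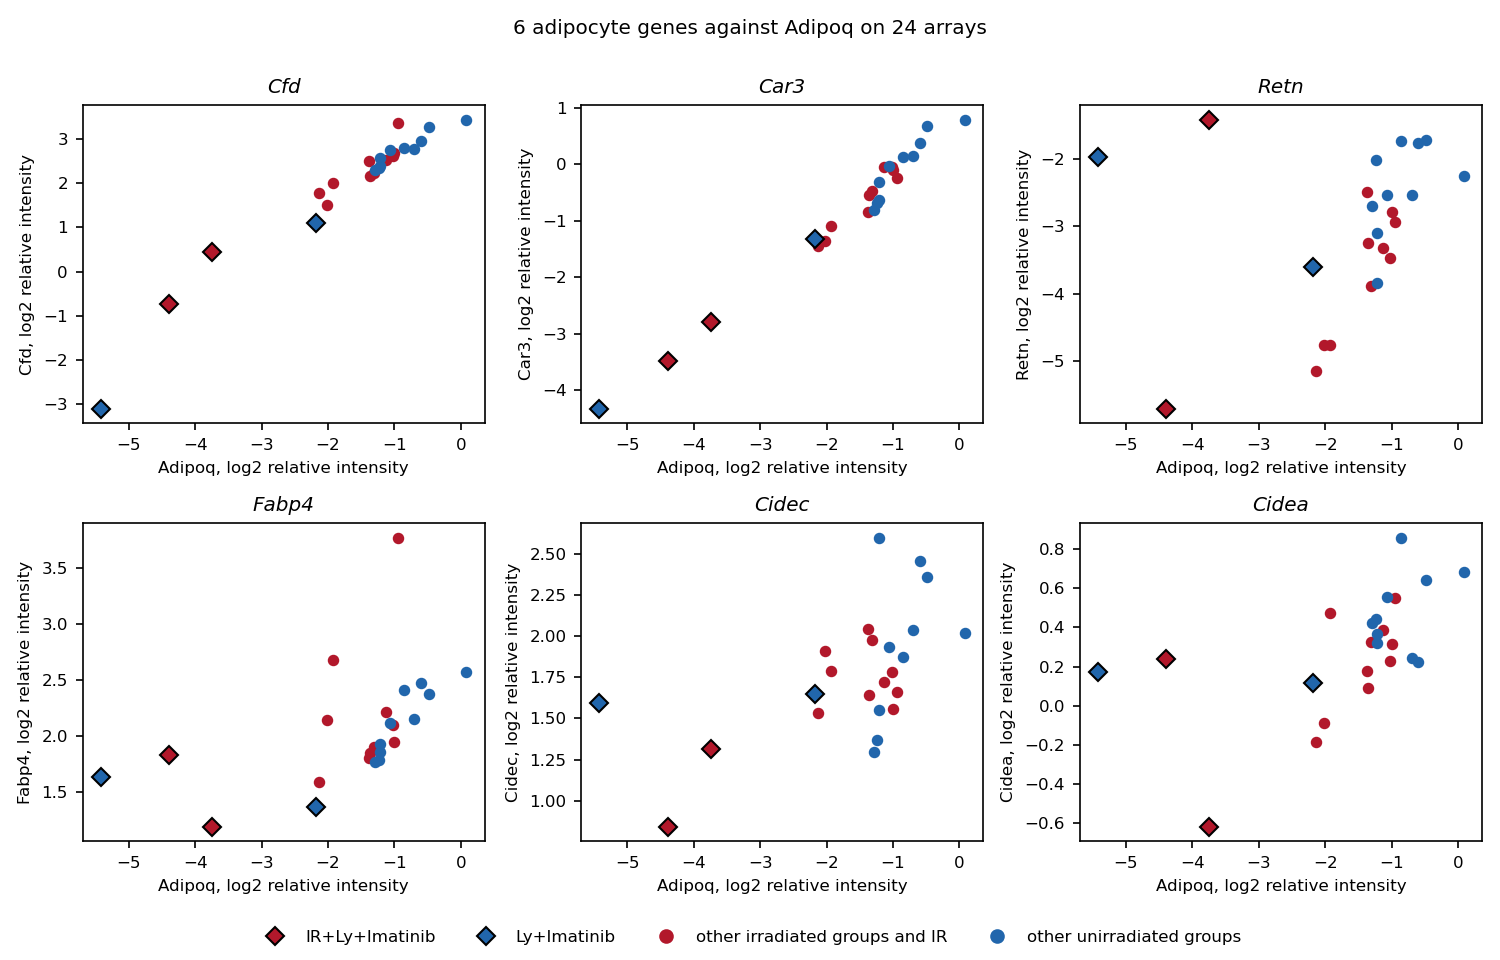
Level of 6 genes (y axis) against Adipoq (x axis) on 24 arrays, log2 relative intensity; diamonds are the IR+Ly+Imatinib and Ly+Imatinib arrays, circles the other 20. Cfd and Car3 lie along 1 line with Adipoq across the whole range, and Cidec, Cidea and Fabp4 do not.

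The gap between replicates had a median of 0.63 for Adipoq, 0.51 for Cfd and 0.69 for Car3 over the 12 groups. Its largest value was 3.24 for Adipoq and 3.01 for Car3, both between the 2 Ly+Imatinib arrays. The smallest gaps were 0.056 for Adipoq and 0.042 for Cfd, both between the Su arrays, and 0.003 for Car3, between the IR+Su arrays. For Cidec the median gap was 0.13 and the largest 0.47, and for Cidea 0.19 and 0.85, so that these droplet genes were the most even of the set. Fabp4 had a median gap of 0.32, with its largest, 1.09, between the IR arrays.

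Among 17608 genes well above background on at least 12 arrays, Car3 ranked first in likeness to Adipoq over the 24 arrays (r = 0.99) and Cfd had rank 3 (r = 0.97). Outside the 9 genes, the likest were the transcript NAP025923-1, unnamed in the files, at r = 0.97, and Plin1, the perilipin that coats the adipocyte droplet, at r = 0.92. Plin4, another perilipin, followed at 0.78, then Tff2 at 0.76, Pck1 at 0.75, Ckmt2 at 0.74, Abcc8 at 0.73, and Myom1, Cyp2a4 and Cyp2a5 at 0.71 to 0.72. Over the 20 arrays outside the Ly+Imatinib arm, r was 0.96 for NAP025923-1, 0.75 for Plin1 and Pck1, 0.69 for Plin4 and 0.61 for Ckmt2, but 0.49 for Tff2 and Cyp2a4, 0.48 for Cyp2a5, 0.47 for Abcc8 and 0.24 for Myom1. Ckmt2 and Myom1 are genes of striated muscle. With each group's mean removed, Car3 (0.98), Cfd (0.97), NAP025923-1 (0.97) and Plin1 (0.89) led again, followed by Dnaaf6b, Wdr5, Acvr1, Oas1b, Lypd6b, Plin4 and Ppp2r2b at 0.68 to 0.77. Over the 20 arrays, with group means kept, r was 0.65 for Ppp2r2b, 0.57 for Wdr5 and 0.49 for Dnaaf6b, but 0.38 for Lypd6b, 0.29 for Acvr1 and 0.04 for Oas1b. Retn ranked 3441st on the levels by its first probe, and Fabp4 501st. Only 5 of 20409 genes tested, 0.0245%, had all 4 arrays of the Ly+Imatinib arm below the 20 others, and 0.0637% had them above: the lower ones were Adipoq, Cfd, Plin1, NAP025923-1 and Tmem45b. All 5 were picked or named with values of these arrays in view, Adipoq and Cfd among them, and Tmem45b lay between -7.76 and -7.27 on those 4 arrays.

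The promoters of 3 genes that moved together, Adipoq, Cfd and Plin1, are shown from RefSeq, build GRCm38.p6, from 250 bases before to 50 after the annotated start, written along the gene's strand. Capitals mark matches, on either strand, to the nuclear receptor half-site AGGTCA, the C/EBP motif TTGCNNAA, the promoter motif CCAAT or the core motif TATAAA.
Adipoq promoter (chr16:23146286-23146585, plus strand): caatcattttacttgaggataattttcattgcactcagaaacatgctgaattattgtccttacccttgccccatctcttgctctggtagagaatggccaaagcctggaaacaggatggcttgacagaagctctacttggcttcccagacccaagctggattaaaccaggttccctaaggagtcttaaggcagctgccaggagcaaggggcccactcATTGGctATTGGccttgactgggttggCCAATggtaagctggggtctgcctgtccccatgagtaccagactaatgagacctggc
Cfd promoter (chr10:79890603-79890902, plus strand): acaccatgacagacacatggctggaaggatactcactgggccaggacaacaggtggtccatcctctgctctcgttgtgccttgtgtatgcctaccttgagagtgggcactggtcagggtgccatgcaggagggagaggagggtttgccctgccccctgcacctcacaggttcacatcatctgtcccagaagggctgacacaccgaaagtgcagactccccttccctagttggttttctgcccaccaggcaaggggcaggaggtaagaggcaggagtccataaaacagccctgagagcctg
Plin1 promoter (chr7:79732727-79733026, minus strand): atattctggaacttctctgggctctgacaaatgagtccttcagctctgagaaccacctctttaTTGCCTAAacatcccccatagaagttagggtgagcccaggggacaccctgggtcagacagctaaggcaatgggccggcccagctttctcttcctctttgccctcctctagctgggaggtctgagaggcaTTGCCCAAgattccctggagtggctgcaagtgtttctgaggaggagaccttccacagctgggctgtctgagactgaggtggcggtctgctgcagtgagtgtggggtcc
Adipoq held 3 CCAAT matches, a motif in 37.4% of all 32851 promoters of this length, and Plin1 held 2 C/EBP matches, a motif in 10.8%. Cfd held none of the 4, of which AGGTCA occurs in 16.3% and TATAAA in 13.6% of promoters. No motif was thus shared by the 3 windows, which says only that these letters are not in them. Promoters of 6 of the 9 genes were in the table used, and those of Car3, Fabp4 and Cidea were not.

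Irradiation was compared within each arm and averaged over the 6 arms. The averaged difference was -1.18 ± 0.48 for Retn, -0.54 ± 0.29 for Car3, -0.52 ± 0.30 for Adipoq, -0.26 ± 0.10 for Cidea, -0.25 ± 0.07 for Cidec, -0.21 ± 0.37 for Cfd and 0.05 ± 0.13 for Fabp4. The 12 irradiated arrays overlapped the 12 unirradiated ones for all 7 genes; 0.23% of all genes tested lay wholly lower and 0.392% wholly higher. Retn had a median of -3.40 in irradiated lungs, against -2.40 in unirradiated ones, by its first probe. Its probes gave close averages here (-1.18 and -1.16), although they parted on the irradiated array IR+Ly+Imatinib 1 and the unirradiated array Ly+Imatinib 1. By the first probe the average was -1.53 without IR+Ly+Imatinib 1 and -0.82 without IR+Ly+Imatinib 2. The averaged Cfd difference was -0.56 without array Ly+Imatinib 1 and 0.14 without Ly+Imatinib 2. Leaving out the whole Ly+Imatinib arm gave -0.43 ± 0.41 for Cfd and -0.57 ± 0.33 for Adipoq.

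The arms did not go 1 way. In the Imatinib arm, 6 of the 7 genes were lower on both irradiated arrays than on both unirradiated ones, all but Cidec, where 24.6% of all genes were lower and 30.6% higher; Adipoq differed by -1.24 ± 0.73, Car3 by -1.35 ± 0.70 and Cfd by -1.10 ± 0.92. In the Ly arm 5 were lower in this way, against 12.9% of all genes lower and 16.3% higher, with Adipoq at -0.79 ± 0.73. Without drug, Adipoq, Car3, Retn and Cidec were lower on both IR arrays than on both untreated ones and Fabp4 was higher, against 26.5% lower and 22.5% higher among all genes. There Adipoq differed by -0.85 ± 0.73, Car3 by -1.07 ± 0.70, Retn by -1.72 ± 1.17, Cidec by -0.48 ± 0.18 and Fabp4 by 0.96 ± 0.32. Without array IR 1, Adipoq was at -1.34, Retn at -2.62, Cfd at -1.01 and Fabp4 at 0.42, and without IR 2 they were at -0.35, -0.81, 0.33 and 1.51. The sign of Cfd, -0.34 ± 0.92 with both arrays, thus turned on 1 array. In the Su arm 5 genes were higher on both irradiated arrays (33% of all genes), Car3 by 0.70 ± 0.70, Cidec by 0.42 ± 0.18 and Adipoq by 0.19 ± 0.73, and Retn and Cidea were lower (42.3%). These shares of all genes were the highest of the 6 arms. Replicates of the Su and IR+Su groups lay close together (Adipoq SD 0.04 and 0.08, against a pooled SD of 0.79), so arrays part readily in this arm. In the Ly+Imatinib arm only Cidec (-0.54 ± 0.18, 32.1% of all genes lower and 26.4% higher) and in the Ly+Su arm only Cidea (-0.41 ± 0.25, 30% lower and 30.6% higher) had arrays apart.

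The surroundings of these genes were read from a list of 86 further genes of fat cells, of which 81 were tested: 12 regulators of adipocyte identity, 13 genes of the droplet and of lipolysis, 23 of fatty acid uptake and synthesis, 15 of secreted and other products and 18 of brown fat. These were tested by limma across all 20409 genes, with Benjamini-Hochberg adjustment and 0.05 as the threshold. The list was chosen with earlier results of these data known, so its counts and p-values are not an independent test. Against the no-drug arm, the Ly+Imatinib arm had 20 of the 81 lower and 2 higher, while 7.92% of all genes were lower and 11.5% higher (19.4% in all). The median difference was -0.25 over the list and 0.02 over all genes. Mean levels were 3.72 for Angptl4, 2.83 for Lpl and 1.62 for Npr3, but -2.82 for Plin1 and -4.96 for Pck1, where Adipoq had a median of -1.23. Npr3, Lpl and Fasn also passed as lower in the Su and Ly+Su arms, where Adipoq differed by -0.16 and -0.09, while Plin1 and Plin4 did not. Which cells of the lung the list genes came from was not tested. Plin1 stood between -5.08 and -3.36 on the 4 arrays of the Ly+Imatinib arm, against -3.15 to -1.99 on the 4 without drug, and fell 3.26-fold (-1.70 ± 0.31, limma adjusted p = 0.00236). Those 4 arrays lay below all 20 others, as for 0.0245% of genes tested, but the gap was small: the lowest of the 20 stood at -3.32.

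Other droplet and lipolysis genes that fell were Npr3, a clearance receptor for natriuretic peptides (-1.32 ± 0.24), Plin4 (-0.71 ± 0.15), Plin5 (-0.46) and Pnpla2, the adipose triglyceride lipase (-0.33). Lipe, hormone-sensitive lipase, stood at 0.06 ± 0.16 and did not pass. Of the uptake and synthesis genes, 7 of 23 fell, among them Pck1, which makes glycerol phosphate precursors in fat (-1.99 ± 0.51, limma adjusted p = 0.0160, above background on 1 of the 4 arrays of the arm, so that its size is not well measured), Dgat2, which adds the last acyl chain of triglyceride (-0.68), Lpl, lipoprotein lipase (-0.61), and Fasn, fatty acid synthase (-0.55). Of the secreted products, 3 of 15 fell: Angptl4, an inhibitor of lipoprotein lipase, by 1.63 ± 0.38, Wfdc21 by 1.60 ± 0.44, and Vegfb. Among brown fat genes 4 of 18 fell, with Cox7a1, a respiratory chain subunit, at -1.03 ± 0.25. Of the regulators only Klf15, a zinc finger factor of lipid and glucose metabolism, fell (-0.97 ± 0.25) and only Ebf1, a factor of fat and B cell development, rose (0.53 ± 0.13). Pparg and Cebpa, the central factors of adipocyte differentiation, stood at -0.17 ± 0.11 and 0.12 ± 0.24 and did not pass. Aqp7, a glycerol channel, passed as higher (1.32 ± 0.19), but was well above background on 1 of the arm's 4 arrays and on 3 of 24 in all.

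**Figure D4:**
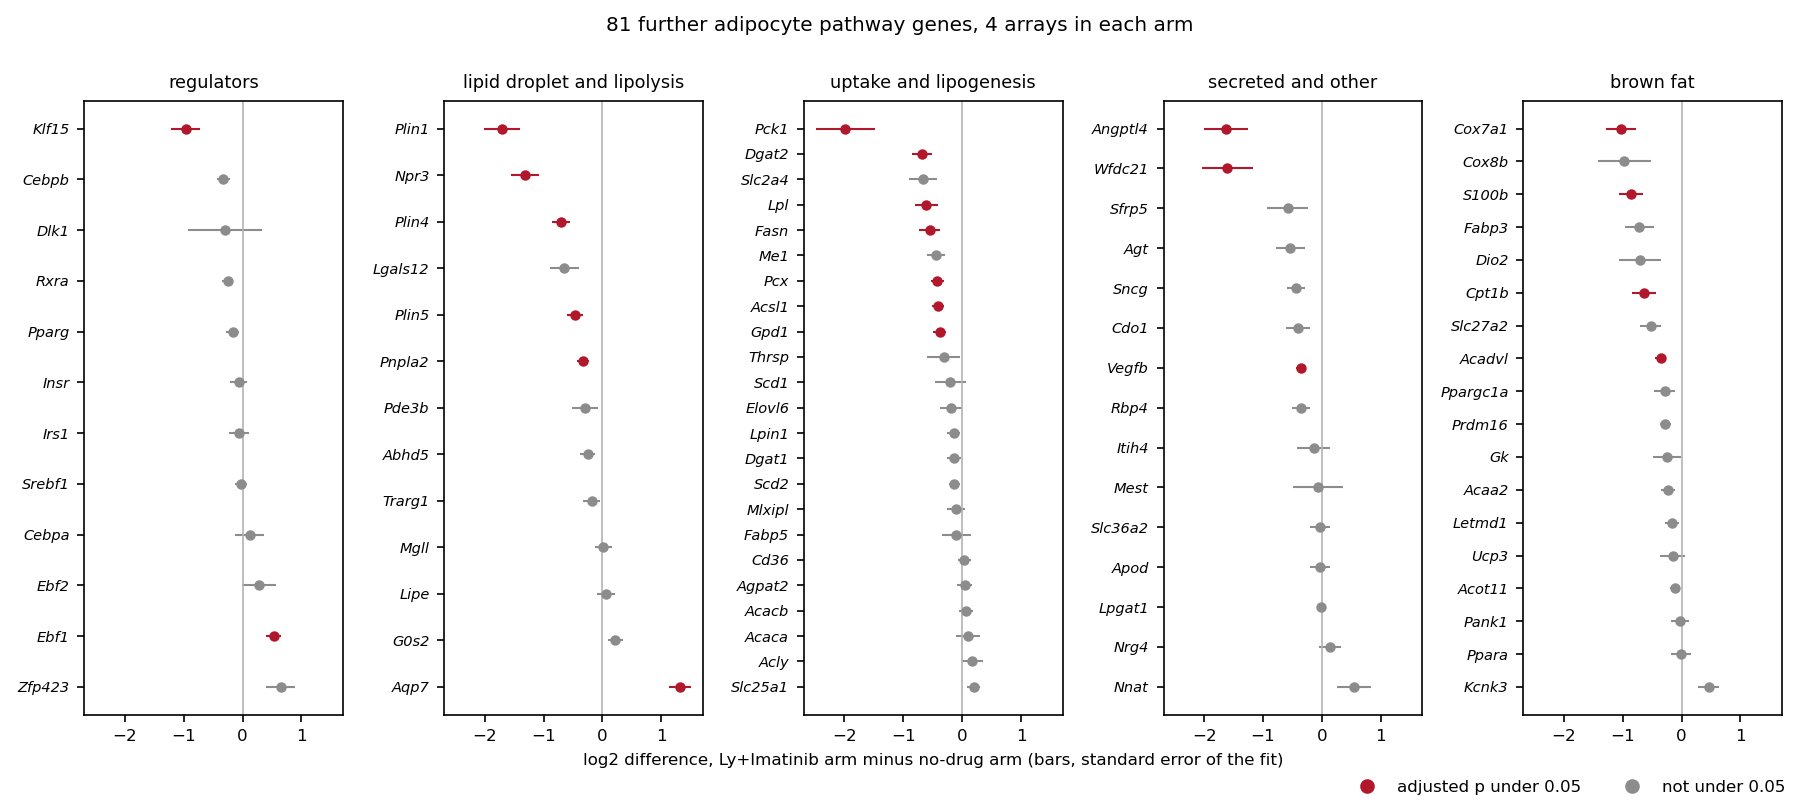
Log2 difference of the Ly+Imatinib arm from the no-drug arm (x axis, bars are SE of the fit) for 81 fat cell genes in 5 groups; red marks passed an adjusted p of 0.05. Most red marks lie left of 0, among them Plin1, and most regulators are grey; Pck1 was above background on 1 of the 4 arrays of the arm, so its place at the far left has no measured size.

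The list's count moved with single arrays, as did the count over all genes. It was 9 without array Ly+Imatinib 1, 10 without untreated 1, 14 without IR 1 and 39 without IR 2, and 11 with slide as a random block (10 lower, 1 higher). Over all genes 3961 passed as reported, and in the same order 1940, 2353, 3536, 7932 and 1629. The fit with the slide block also replaced the group means by additive irradiation and arm terms. Against the Ly+Su arm on the same slides, 0 of 81 passed by limma, 15 had an unadjusted p under 0.05, and 4 of 20409 genes passed in all, 0.0196%, each of them higher. Quantile normalization and the filter for genes above background on all 24 arrays each gave 1. Leaving out IR+Ly+Imatinib 2 gave 5 of 82, 4 lower and 1 higher, with 625 genes passing in all. Leaving out either Ly+Imatinib array or either Imatinib array gave 1. The smallest adjusted p there was that of Plin1, 0.0659, at -1.92 ± 0.31.

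In the Su arm 1 of the 81 rose and 10 fell (7.73% of all genes lower and 6.3% higher, 14% in all), with Wfdc21 at -1.73 ± 0.44, Klf15 at -1.02, Npr3 at -1.01 and Lpl at -0.90, and Ebf1 at 0.70. The count of 11 was 4 without Su 2, 5 without untreated 1, without Su 1 or without IR+Su 1, 6 without IR+Su 2, and 27 without IR 2, where 6982 of all genes passed, against 2863 as reported; it was 4 with slide as a random block. In the Ly+Su arm 3 rose and 6 fell (10.4% of all genes higher and 5.8% lower, 16.2% in all), with Wfdc21 at -1.53, Npr3 at -0.94, Fasn at -0.80 and Lpl at -0.77 among the falls and G0s2, an inhibitor of the triglyceride lipase, at 0.40. Aqp7 was also among the rises (1.28 ± 0.19), but was well above background only on both IR+Ly+Su arrays and IR+Ly+Imatinib 2. Those arrays had the lowest negative control signal, so the size of this rise is not well measured. That count of 9 was 4 without untreated 1 or without IR+Ly+Su 2, 5 without Ly+Su 1, 30 without IR 2, where 7854 of all genes passed, against 3311 as reported, and 4 with slide as a random block. In the Imatinib arm only Klf15 passed (-0.92 ± 0.25, limma adjusted p = 0.0470), where 1.5% of all genes were lower and 3.33% higher (4.84% in all). The call was lost with slide as a random block, and the list's count was also 0 under quantile normalization, normexp and no filter on background. Leaving out IR 2 gave 19, with 6816 of all genes against 987 as reported, and leaving out 1 of most other arrays, untreated 1 among them, gave 0. Quantile normalization gave 264 genes higher and 319 lower over the whole array in this comparison, against 680 and 307 as reported. In the Ly arm 0 of 81 passed and 15 had an unadjusted p under 0.05, while 0.0784% of all genes passed, 0.0588% as higher and 0.0196% as lower; the smallest values were those of S100b (-0.85 ± 0.20, limma adjusted p = 0.0970) and Lpgat1 (-0.29), and leaving out IR 2 gave 21.

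For irradiation averaged over the arms, 19 of the 81 rose and 21 fell, while 16.4% of all genes rose and 16.4% fell (32.8% in all). Leaving out the Ly+Imatinib arm gave 14 and 18, with 13.2% of all genes higher and 12.4% lower (25.6% in all). The list's median was -0.08, and that of all genes 0.01. Of the 13 droplet and lipolysis genes 4 fell, Npr3 by 0.62 ± 0.14, Plin4 by 0.43 ± 0.09, Plin5 by 0.34 and G0s2 by 0.28, 0 rose and the others did not pass. Of the synthesis genes 7 rose, among them Scd1, a fatty acid desaturase, by 0.62 ± 0.16, and Fasn by 0.38 ± 0.11, and 4 fell, among them Dgat2 by 0.45. Of the secreted products, Mest, which is raised when fat tissue expands in mice, rose 2.66-fold and Itih4 1.79-fold. Brown fat genes divided, with Dio2, which activates thyroid hormone, 2.10-fold higher and the respiratory chain genes Cox8b (-0.80 ± 0.26) and Cox7a1 (-0.63 ± 0.15) lower. Dlk1, an inhibitor of adipocyte differentiation, was well above background on all 12 irradiated arrays, at a mean of -3.66, and on 0 of the 12 unirradiated ones, at -7.68, which makes it at least 3.30-fold higher (limma adjusted p = 5.01e-06). Ebf2, a regulator of brown fat, passed as lower but was above background on 3 arrays. The count of 40 was 22 with slide as a random block, 9 higher and 13 lower.

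In IR against untreated lungs, 9 of the 81 rose and 6 fell, where 7.1% of all genes rose and 7.29% fell (14.4% in all). Ebf2, among those that fell, was not well above background on any IR or untreated array. Dlk1 was at -1.59 and -3.00 in IR lungs, against -7.57 and -7.62 in untreated lungs, at least 7.92-fold higher. Mest was at 2.59 and 0.64 in IR lungs, against -1.28 and -0.85 in untreated lungs, a rise of 2.68 ± 0.60. Dio2 rose by 2.35 ± 0.50 and Fabp5, a fatty acid binding protein of skin and macrophages, by 1.59 ± 0.34. Npr3 (-1.32 ± 0.34), Cpt1b, the muscle and brown fat form of the carnitine acyltransferase (-1.13 ± 0.29), and Mlxipl, a glucose-sensing factor of lipid synthesis (-1.07 ± 0.22), fell. The count of 15 was 1 without IR 1, 3 without untreated 2, 7 without untreated 1 and 36 without IR 2, and over all genes, where 2936 passed as reported, the counts were 238, 693, 1055 and 8733 in the same order. For the interaction of irradiation and drug, 0 of 81 passed and 12 had an unadjusted p under 0.05, where 1.07% of all genes passed; the smallest adjusted p was 0.106, and leaving out IR 2 gave 19, IR+Imatinib 1 gave 3 and IR+Ly+Imatinib 2 gave 1.

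The receptors of these hormones were also read: Adipor1 and Adipor2, the adiponectin receptors, Cdh13, a cadherin that binds adiponectin, and Lepr, the leptin receptor. All 4 were tested, and 1 passed in 1 comparison: Adipor2 rose by 0.30 ± 0.08 with irradiation averaged over the arms (limma adjusted p = 0.0118), a comparison in which 32.8% of all genes passed.

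Markers of other tissues that a lung specimen can carry were measured beside the fat cell genes. Cardiac muscle markers moved with Adipoq in part: their mean level was -1.5 and -0.00192 in IR+Ly+Imatinib lungs and -1.38 and 0.36 in Ly+Imatinib lungs, against -1.36 to 1.52 on the other 20 arrays, over which it followed Adipoq with r = 0.64. In the irradiated pair the array with more Adipoq had less cardiac signal, and in the unirradiated pair it had more. Of the 11 cardiac genes tested, 3 were lower in the Ly+Imatinib arm than without drug (Nppa, Mybpc3 and Tnnt2) and 0 were higher, where 7.92% of all genes were lower. The list's median difference was -1.38, with 10 of 11 genes below 0, against a median of 0.02 over all genes. Of the 3 with the highest mean level, Myh7 stood at 0.25 ± 0.26, Myl7 at -2.02 ± 0.71 and Actc1 at -0.13 ± 0.19. The cardiac median was also below the no-drug arm in the Ly arm (-1.30, 10 of 11 genes below 0) and the Imatinib arm (-0.93, 9 of 11). It was 0.39 in the Su arm and 0.12 in the Ly+Su arm, with 3 of 11 below 0 in each. Lymph node and B cell markers stood the other way in the Ly+Imatinib arm, with 6 of 8 higher, among them Ms4a1 by 1.20 ± 0.25, where 11.5% of all genes were higher. Against the same no-drug arrays, 5 of 8 were higher in the Su arm (6.3% of all genes), 5 in the Ly+Su arm (10.4%), 3 in the Imatinib arm (3.33%) and 1 in the Ly arm (0.0588%). Skeletal muscle markers had a mean of -4.09 on Ly+Imatinib 1, against -3.35 to -3.04 on the other 3 arrays of the arm and -3.82 to -2.77 on the 20 others.

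Thymus markers lay between -2.40 and -1.43 in the Ly+Imatinib arm, against -2.57 to -1.49 on the 20 others, and their r with Adipoq over those 20 was 0.05. Mesothelium markers (-0.88 to -0.35 in the arm, against -1.01 to 0.24 elsewhere) and nerve markers (-0.43 to -0.17, against -0.78 to -0.09) also overlapped, as did those of alveolar macrophages (2.10 to 2.59, against 1.94 to 3.02) and of capillary endothelium (4.37 to 4.54, against 3.74 to 4.61). The lung epithelium list stood at 5.91 to 6.22 in the arm, against 5.90 to 6.47 elsewhere. Its median difference from the no-drug arm was -0.31, with 9 of 10 genes below 0. That median was -0.25 for the 81 fat cell genes and 0.02 over all genes. Of the 10 genes 3 were lower and 0 higher, where 7.92% of all genes were lower. Of 9 capillary endothelium genes 3 were higher and 0 lower, where 11.5% of all genes were higher. Thymus had 1 of 6 genes higher, nerve 1 of 4 higher and skeletal muscle 1 of 11 lower, and mesothelium and alveolar macrophages had 0. Pvalb of skeletal muscle, Rag2 of thymus and Cdh19 of nerve were never above background. The part of any of these tissues in the levels of Adipoq, Cfd and Car3 was not tested.

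**Figure D5:**
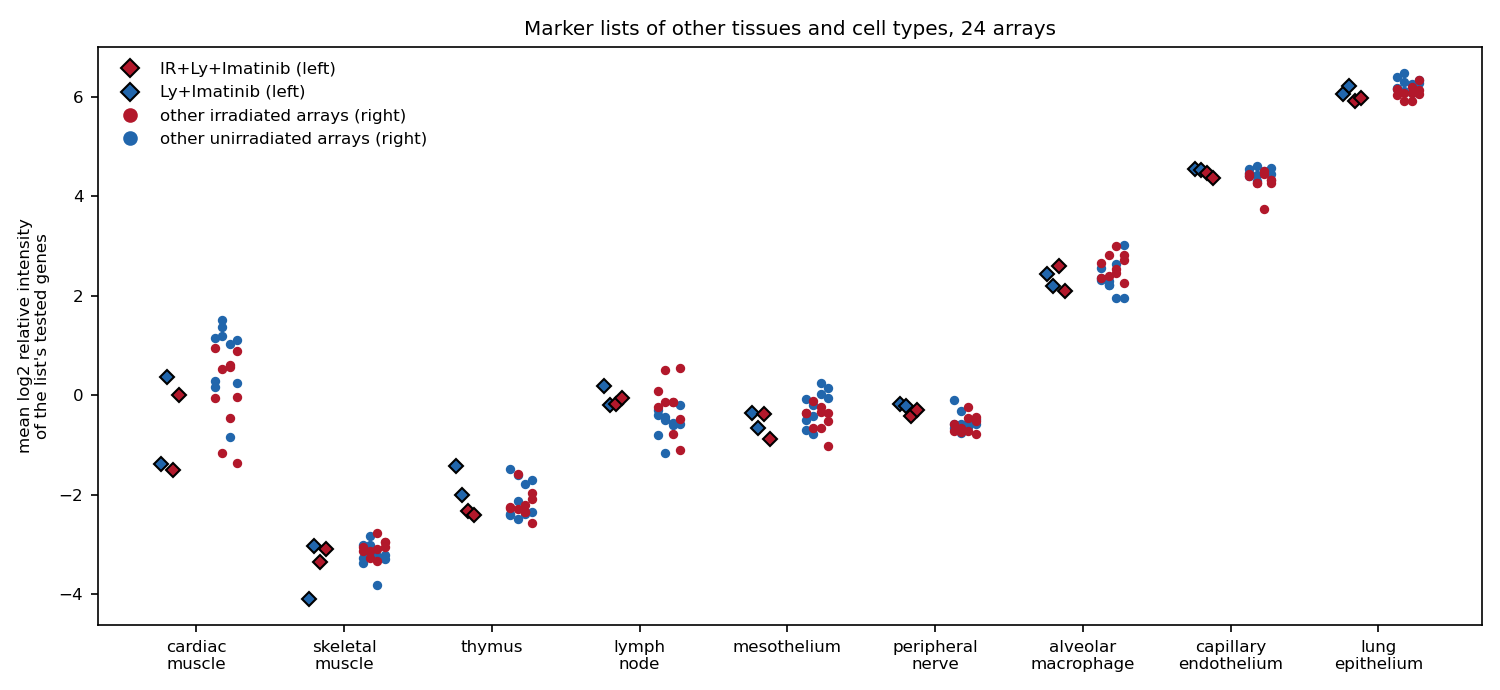
Mean log2 relative intensity of 9 marker lists (y axis) on 24 arrays; diamonds are the 4 arrays of the Ly+Imatinib arm and circles to their right the other 20, red irradiated and blue not. Cardiac muscle is the list with the widest spread, and lung epithelium runs from 5.90 to 6.47 over the 24 arrays.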

How the data were processed

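The members and gene lists were chosen with earlier results of these data known. The deposited intensity values were, per the file headers, background-subtracted by Agilent's Feature Extraction software (9.1.3.1) on single-colour (Cy3) arrays of 43379 non-control spots; the authors' deposited series table holds the same intensity times a constant (ratio 0.995 to 1.005). Spots of a probe were averaged, outlier flags removed 619 of 41174 probes, and the probe of highest mean stood for each gene, named by accession, symbol or synonym. The value is log2 intensity minus the log2 of the array's 75th percentile. Testing took the 20409 of 27401 genes that exceeded background in both replicates of some group; on an array, 62.0% to 78.5% of spots did so, and the number of arrays limits the precision.

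Differences were fitted with limma 3.58.1 in R 4.3.3 (lmFit, eBayes), 1 mean per group over all 24 arrays, with 12 residual and 2.08 prior degrees of freedom. P-values are two-sided and adjusted by Benjamini-Hochberg over all genes tested. An arm averages its irradiated and unirradiated group. On simulated data 69% of genes changed by 1 and 87% changed by 2 on the log2 scale were recovered in the Ly+Imatinib comparison. The simulated noise was normal and independent between genes and arrays, with no slide effect. These shares therefore do not give the recovery on the real arrays. Replicate numbers did not pair the arrays (66 pairs of groups, median correlation of deviations 0.036). The named genes are the 9 members, the 10 others most like Adipoq (1 is not reported here), up to 4 rising and 4 falling list genes per comparison, or the 2 of smallest p, and up to 3 genes by level of each marker list; further list genes were named for their known function after their values were seen. The alternatives tried were quantile normalization, normexp background correction, 2 other filters, every probe, slide and replicate blocks, and each array left out. The slide block was fitted with additive terms for irradiation and arm, not with 1 mean per group. For the second IR+Su sample, whose title says 2 and source name says 1, the title decided. The bound for a gene at background in 1 group uses, on each array, the higher of its own signal and the lowest signal well above background.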

Additional observations from a re-analysis of the deposited data

Results flagged for a closer look

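The irradiation difference went opposite ways in different drug arms for 5 genes, with both irradiated arrays above both unirradiated ones in 1 arm and below them in another; 36.9% of all genes tested did the same in at least 1 pair of arms. Adipoq differed by 0.188 in the Su arm and -1.24 in the Imatinib arm. Cfd differed by 0.247 in the Su arm and -1.10 in the Imatinib arm. Car3 differed by 0.696 in the Su arm and -1.35 in the Imatinib arm. Fabp4 differed by 0.961 without drug and -0.594 in the Imatinib arm. Cidec differed by 0.420 in the Su arm and -0.551 in the Ly arm. These differences between arms were not tested, each rests on 2 arrays against 2, and irradiation coincides with slide in every arm. Replicates of the Su and IR+Su groups lay close together, so arrays part readily in the Su arm. With 2 arrays in each group, no group was large enough to be searched for outlying arrays.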

How the results depend on the processing

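With 2 arrays a group, slides that never held both irradiated and unirradiated lungs, and members chosen with the data known, these values describe these arrays. The counts of the 81 list genes moved by more than 1.5 times in the following cases, whose cause was not tested; some settings test 82 of the list. With slide as a random block, 22 passed for irradiation averaged, 4 for the Su arm, 11 for the Ly+Imatinib arm, 4 for the Ly+Su arm and 0 for the Imatinib arm. That fit had additive terms for irradiation and arm in place of 1 mean per group, so its counts mix both changes. IR against untreated and the interaction could not be fitted with it. With normexp, which moved the median of all genes in IR against untreated to -0.17 (-0.12 with no filter), 13 passed for the Ly+Imatinib arm, 5 for the Ly+Su arm and 0 for the Imatinib arm. Quantile normalization and no filter on background each gave 0 for the Imatinib arm, and testing every probe gave 2 there and 23 for IR against untreated. With the Ly+Su arm in place of the no-drug arm, chosen after seeing the data, 0 passed for the Ly+Imatinib arm, Fabp4 differed by -0.53 and Cidec by -0.31. That contrast had 0 as reported and 1 with quantile normalization or the filter on all 24 arrays. Over all genes, normexp gave 1655 calls for the Ly+Imatinib arm, against 3961 as reported, and the slide block 1629. With replicate number as a block, which the arrays did not bear out as a pairing, 40 passed for irradiation averaged, 17 for IR against untreated, 0 for the Ly arm, 1 for the Imatinib arm, 15 for the Su arm, 22 for the Ly+Imatinib arm, 9 for the Ly+Su arm and 0 for the interaction, within 1.5 times of the reported counts. Leaving out 1 array in turn gave 33 to 47 for irradiation averaged, 1 to 36 for IR against untreated, 0 to 21 for the Ly arm, 0 to 19 for the Imatinib arm, 4 to 27 for the Su arm, 9 to 39 for the Ly+Imatinib arm, 0 to 5 for that arm against the Ly+Su arm (highest without IR+Ly+Imatinib 2), 4 to 30 for the Ly+Su arm and 0 to 19 for the interaction, the other highest values all without IR 2. For the members in the Ly+Imatinib arm, all alternatives kept the sign for Adipoq (-3.73 to -2.11), Cfd (-4.49 to -2.39), Car3 (-3.61 to -2.10), Fabp4, Cidec and Cidea, and 28 of 32 did so for Retn (-1.25 to 0.89).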
